A study of Chlorocebus sabaeus with 32 samples.

Results

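Genes for 10 RNA-binding proteins that shape neuronal transcripts were followed in the hippocampus of infant vervet monkeys. They were chosen by name as the rows of the count table called PTBP1, PTBP2, NOVA1, NOVA2, RBFOX1, RBFOX2, RBFOX3, ELAVL2, ELAVL3 and ELAVL4, so 10 of the 33994 gene rows. All 10 were in the table and all 10 passed the filter on low counts, as did 19959 genes in all. The series holds 32 libraries of total hippocampal RNA from Chlorocebus sabaeus, depleted of ribosomal RNA and sequenced to examine how expression changes in development. Every library carries the same label, an age under 1 year, and no treatment, genotype, sex or exact age is given here, so the 32 libraries form 1 group. By the 4 digits that open the title, the libraries fall into block A (14 libraries), block B (16) and block C (2), whose prefixes are given with the processing. A number later in the title is under 20000 for 21 of them, block A entirely, and above it for 11. What the digits and the number stand for is not explained in the labels, nor is it stated that each library is a separate animal, so p-values measure the spread between these libraries.

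PTBP1 and PTBP2 are polypyrimidine tract binding proteins that repress exons. PTBP1 works in progenitors and non-neuronal cells, PTBP2 takes over in young neurons, and the release from both lets neuronal exons into mature transcripts. NOVA and RBFOX proteins bind short motifs in introns and promote or repress neighbouring exons according to position, and RBFOX3 is the NeuN antigen used to mark mature neurons. ELAVL2, ELAVL3 and ELAVL4 (HuB, HuC and HuD) bind AU-rich stretches of mRNA, protect them from decay and also act on splicing. Counts were summed over each gene, so the splicing and decay that these proteins control were not measured.

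Levels are counts relative to library size (CPM), scaled between libraries by trimmed mean of M-values, and are not divided by transcript length, so they are compared between libraries and not between genes. Gene counts per library ran from 9347635 to 19673621. The share of reads that lay in no gene feature (the no-feature share) was 57.0% ± 3.61 (SD, n = 32) and ran from 51.3% to 67.1%. Replicate 1, of block A, stood apart with the lowest depth and the highest share in no feature. It also had the lowest summed level of 8 neuronal markers, 3062 CPM against a median of 5444. Values without replicate 1 are given for several results that rest on it. The 8 markers, called pan-neuronal below, were SNAP25, SYT1, STMN2, SYN1, SLC17A7, GAD1, GAD2 and NEFL. The 6 hippocampal markers, such as PROX1 and RGS14, summed to 821 ± 147 CPM (n = 32), with 350 CPM as the lowest sum. Summed oligodendrocyte precursor markers were 315 ± 71.7 CPM in block A (n = 14) and 439 ± 74.6 in block B (n = 16), and progenitor and division markers 189 ± 28.8 and 228 ± 26.1. The latter sum was mostly NES and SOX2, with means of 81.8 and 109 CPM over all libraries. The division genes MKI67 and TOP2A had 3.33 and 11.3 CPM, and neither passed between blocks (adjusted p 0.0689 and 0.0928 in edgeR). Striatal and thalamic markers and choroid plexus markers were high in single libraries of block B, up to 299 and 419 CPM. No marker gene found in the table was at 0 in all libraries, and the part of other cell types in the results below was not tested.

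Of the PTB proteins, both varied less between libraries than the median gene. The level of PTBP1 was 20.6 CPM in the lowest library, 24.3 in the median and 30.1 in the highest, which was replicate 1, with counts of 238 to 501 and a mean of 24.2 ± 2.41 CPM (SD, n = 32). PTBP2 ran from 100.6 CPM, again in replicate 1, through a median of 139 to 155, with a mean of 136 ± 14.6. The biological coefficient of variation (BCV), the spread between libraries beyond counting noise, was 0.103 for PTBP1 and 0.108 for PTBP2, against a median of 0.157 over all 19959 genes.

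NOVA1 had 44.6 CPM in the lowest library, 55.3 in the median and 79.4 in the highest, with a mean of 58.4 ± 8.31 CPM (n = 32) and a BCV of 0.143. NOVA2 ranged more widely, from 37.2 through 53.9 to 87.9 CPM, with a mean of 55.0 ± 11.2 and a BCV of 0.198. Its highest value was that of replicate 9 and the next was 71.7 CPM.

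The RBFOX family held both the steadiest and the most variable of the 10 genes. RBFOX2, which many tissues express, spanned 390 to 525 CPM around a median of 469, with a mean of 467 ± 30.5 (n = 32) and a BCV of 0.0804, lower than in all but 3.93% of genes. RBFOX3 spanned 39.6 to 113 CPM around a median of 62.4, with a mean of 65.0 ± 17.4 and a BCV of 0.256, and replicate 1 was highest. Between them stood RBFOX1, a neuronal and muscle splicing factor, at a BCV of 0.224. Its levels ran from 103.6 CPM in replicate 1 through a median of 269 to 378, with a mean of 267 ± 59.9. The second lowest library had 176 CPM, and without replicate 1 the mean was 272 ± 52.8 CPM (n = 31). By the RefSeq annotation 8 other genes overlap RBFOX1, 3 of them with rows of their own here, and 1 pseudogene with a row overlaps RBFOX2. RBFOX3 and ELAVL3 each overlap 1 gene without a row of that name. These are overlaps of whole gene spans, and overlap of exons was not examined. With the strand setting of the counting not given in the sources used here, how reads of overlapping genes were counted is not known.

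Of the neuronal ELAVL genes, ELAVL2 had 100.1 CPM in the lowest library, 167 in the median and 221 in the highest, with a mean of 166 ± 34.6 CPM (n = 32) and a BCV of 0.201. ELAVL3 ran from 39.2 through 51.6 to 72.7 CPM, highest in replicate 9 as for NOVA2, with a mean of 51.7 ± 8.44 and a BCV of 0.159. ELAVL4 ran from 61.8 through 86.5 to 125 CPM, with a mean of 85.2 ± 15.5 and a BCV of 0.174. In bulk tissue, fewer cells of a type and less RNA per cell cannot be told apart.

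**Figure D1:**
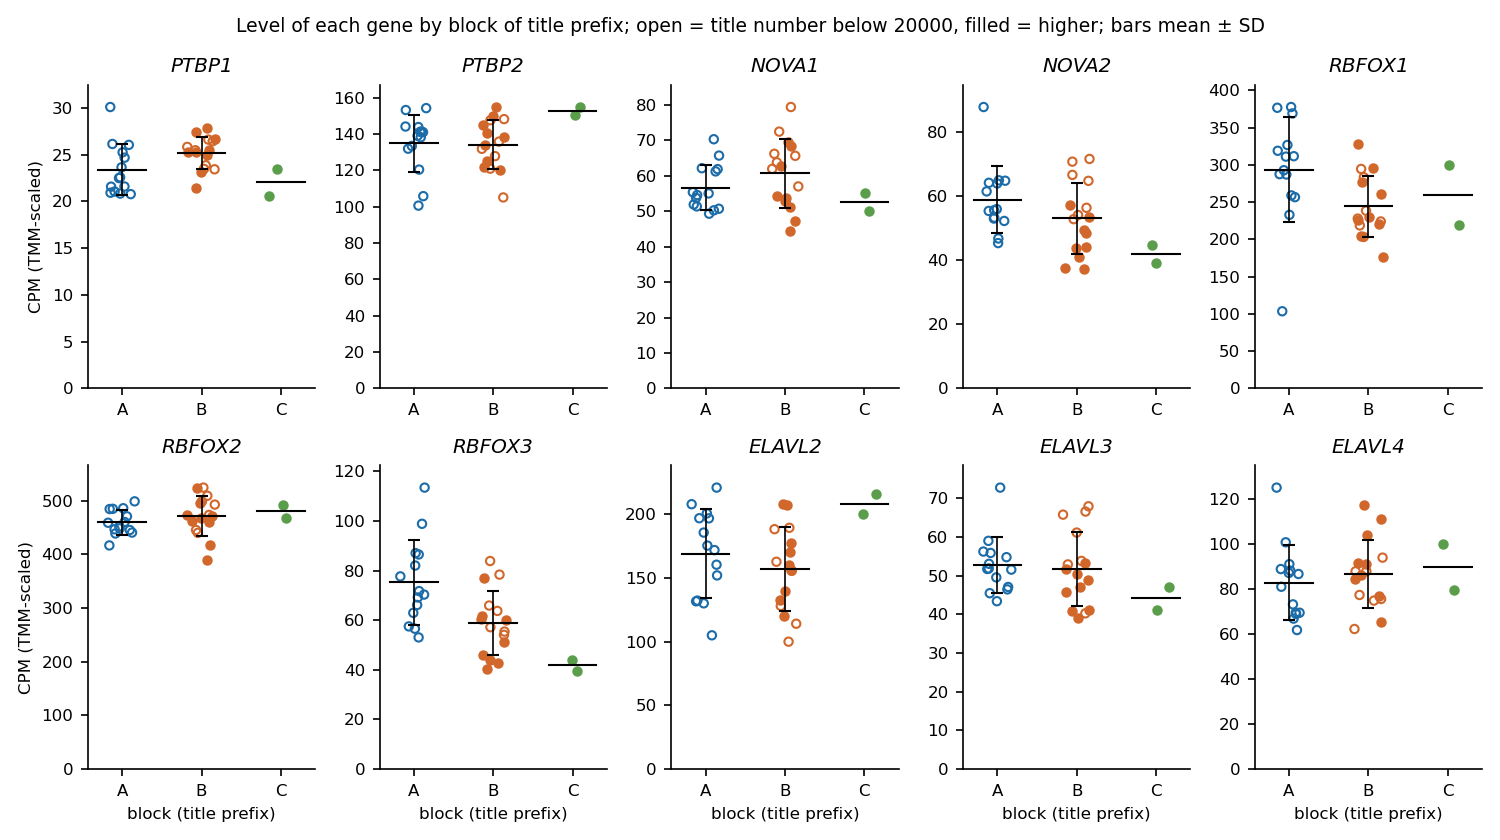
CPM of each gene (y axis, from 0) by block (x axis), 1 point per library, with bars for the mean and SD (mean only for the 2 libraries of block C). RBFOX3 sits lower in block B (mean 58.9 CPM) than in block A (75.2), and replicate 1 is the lone RBFOX1 point at 103.6 CPM.

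RBFOX3 was lower in the libraries of block B than in those of block A, while the other 9 genes did not pass the test. Its levels were 53.1 CPM (lowest), 71.0 (median) and 113 (highest) in block A and 40.5, 58.7 and 83.9 in block B, with means of 75.2 ± 17.1 (SD, n = 14) and 58.9 ± 12.9 (n = 16). The groups overlapped, with 5 of 16 libraries of block B below every library of block A and 3 of 16 above the block A median. Both libraries of block C, at 44.0 and 39.6 CPM, lay below all of block A. RBFOX3 fell by 0.35 ± 0.11 on the log2 scale (SE), a fold of 0.785, with an adjusted p of 0.0329 in edgeR's quasi-likelihood test. Of all 23977 genes tested 12.5% were called, 7.11% higher and 5.35% lower, so 1 called gene among 10 is close to that background.

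The RBFOX3 call was not firm. It was lost when any 1 of replicates 3, 4, 7, 9, 23, 27, 28 or 29 was left out, with an adjusted p of up to 0.0621 and log2 differences from -0.40 to -0.29 over all 32 omissions. Among libraries with title numbers below 20000, 14 of block A and 7 of block B, the difference was -0.19 with an adjusted p of 0.433, and 4.73% of genes were called. With the no-feature share as a covariate it was -0.31 (adjusted p 0.0215 in edgeR), and with the pan-neuronal score as a covariate -0.38 (adjusted p 0.0113). Of the 8 pan-neuronal markers 2 were called higher and 3 lower in block B, so a score of such genes need not follow neuron content. With the immature neuron score described below as a covariate, the difference turned to 0.10 (adjusted p 0.899), in a fit that called 1 of 23977 genes (0.00417%). With library totals in place of the scaling it was -0.32 and lost the call (adjusted p 0.0609).

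RBFOX1 and PTBP1 depended on replicate 1. RBFOX1 had a mean of 294 ± 70.4 CPM in block A (n = 14) and 244 ± 41.2 in block B (n = 16), and 1 of 16 libraries of block B lay above the block A median. The log2 difference was -0.26 ± 0.11 (adjusted p 0.127 in edgeR), and -0.33 with an adjusted p of 0.0061 without replicate 1, where 16.2% of all genes were called. With the no-feature share as a covariate it was -0.27 with an adjusted p of 0.0320, in a fit that called 18.5% of genes. PTBP1 had 23.4 ± 2.74 and 25.2 ± 1.72 CPM, and 15 of 16 libraries of block B were above the block A median. Its difference was 0.11 ± 0.053 (adjusted p 0.172), and 0.14 with an adjusted p of 0.0357 without replicate 1.

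The remaining genes had differences between -0.14 and 0.10. NOVA1 had 56.7 ± 6.47 CPM in block A and 60.7 ± 9.63 in block B, a difference of 0.10 with a 95% interval of -0.038 to 0.24. NOVA2 had 59.0 ± 10.5 and 53.2 ± 11.1 CPM, with an interval of -0.33 to 0.043. RBFOX2, at 460 ± 22.9 and 472 ± 36.7 CPM, had an interval of -0.033 to 0.12, and PTBP2, at 135 ± 15.8 and 134 ± 13.5 CPM, one of -0.11 to 0.11. For the ELAVL genes the intervals were -0.30 to 0.099 (ELAVL2), -0.19 to 0.13 (ELAVL3) and -0.11 to 0.25 (ELAVL4). In simulated data, with 100 genes changed by each size, differences of 0.25 were recovered in 20% of genes and those of 0.5 in 70%. A small difference could thus have been missed. The changed genes were drawn from the whole table and were fewer than the genes called here, so these are not rates for the 10 genes. In all simulations the spread was estimated without the comparison in the model, unlike in the fits themselves.

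**Figure D2:**
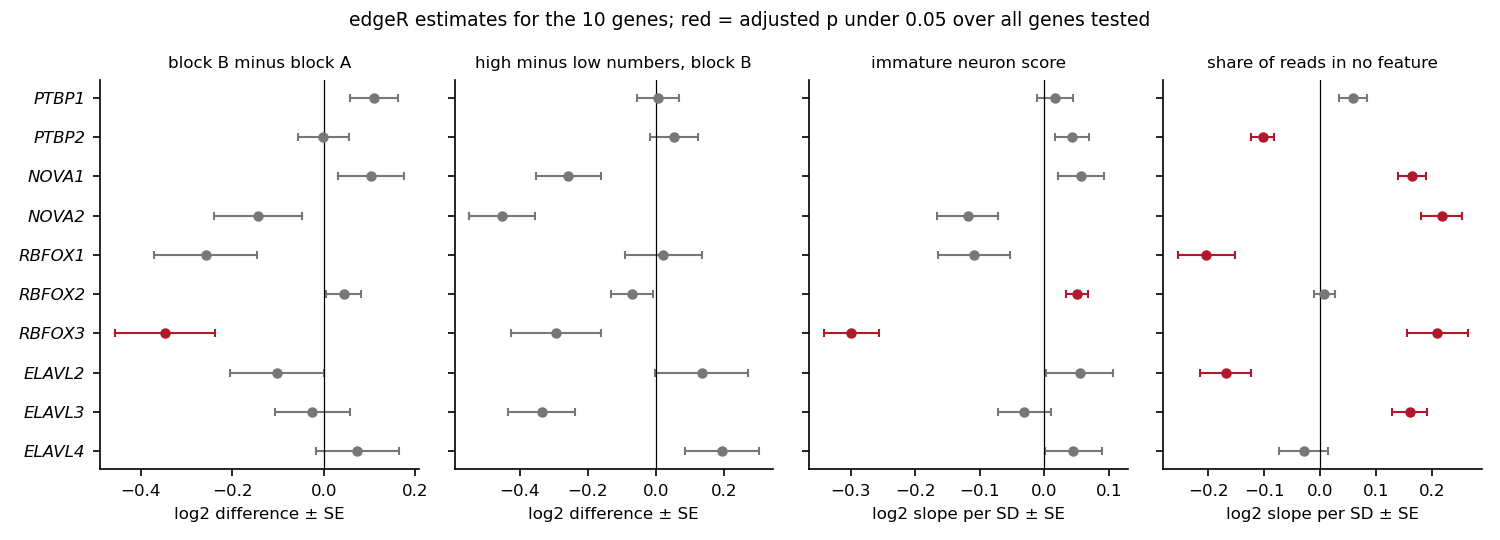
Estimates from edgeR for each gene (x axes, log2 difference between library groups or log2 slope per SD, bars 1 SE), with red for an adjusted p under 0.05. RBFOX3 is the only red gene in the comparison of block B with block A, RBFOX2 and RBFOX3 are red for the immature neuron score, and 7 genes are red for the no-feature share.

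Within block B the NOVA genes, ELAVL3 and RBFOX3 had lower values in libraries with high title numbers, without passing the test. NOVA2 had 52.9 CPM (lowest), 64.8 (median) and 71.7 (highest) in the 7 libraries with low numbers and 37.2, 44.3 and 57.2 in the 9 with high numbers. The ranges overlapped, and the log2 difference was -0.45 ± 0.097 (p 0.000171, adjusted p 0.135 in edgeR). ELAVL3 had 40.2, 61.1 and 67.9 CPM with low numbers and 39.2, 47.0 and 53.2 with high numbers, a difference of -0.34 ± 0.099 (adjusted p 0.197). NOVA1, at 66.7 ± 7.32 and 56.1 ± 8.86 CPM, had -0.26 ± 0.095. RBFOX3 had 54.1, 63.8 and 83.9 CPM with low numbers and 40.5, 51.3 and 77.0 with high numbers, a difference of -0.29 ± 0.13. The ranges overlapped for these 3 genes too. By edgeR's quasi-likelihood test 0 of 21488 genes were called after adjustment (0%), while 3023, or 14.1%, had an unadjusted p under 0.05, 7.73% in the lower direction. Of the 10 genes 4 did, all lower. DESeq2 called 183 genes (0.852%), NOVA2 among them with an adjusted p of 0.00968.

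The no-feature share moved with the number sets, at 59.1% ± 3.01 in the libraries with low numbers (n = 7) and 55.2% ± 2.71 in those with high numbers (n = 9). With that share as a covariate the difference was -0.28 for NOVA2, -0.20 for ELAVL3, -0.22 for RBFOX3 and -0.040 for NOVA1, each with an adjusted p of 0.997 in edgeR.

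RBFOX3 was lower and RBFOX2 higher in libraries with more RNA of immature neuron genes. The immature neuron score averages 11 genes of young neurons, such as DCX, SOX4 and STMN1, and is counted in SD over the 32 libraries. RBFOX3 fell by 0.30 ± 0.043 on the log2 scale per SD (adjusted p 1.93e-06 in edgeR), a fold of 0.813, and RBFOX2 rose by 0.050 ± 0.017 (adjusted p 0.0207), a fold of 1.04. These were 1 gene in each direction, where 32.9% of 19948 genes followed the score, 16.3% higher and 16.6% lower, so the count of 2 in 10 is not above the background. Both calls held whichever single library was left out.

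**Figure D3:**
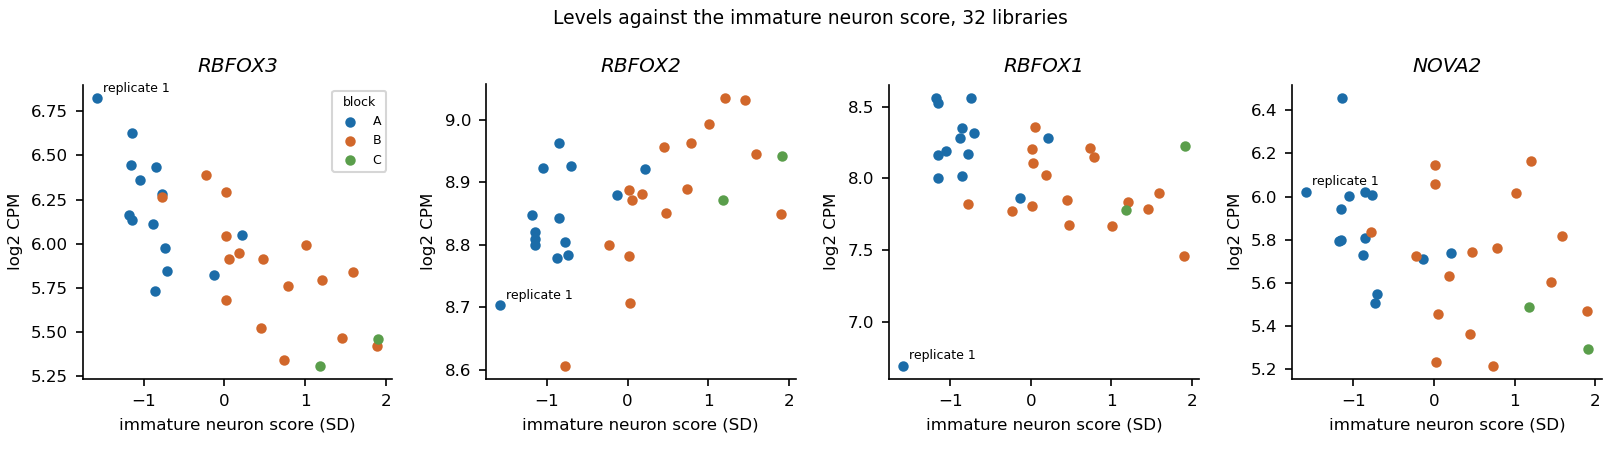
Level (y axes, log2 CPM) of RBFOX3, RBFOX2, RBFOX1 and NOVA2 against the immature neuron score (x axes, SD units), 1 point per library, coloured by block. RBFOX3 declines along the score by 0.30 per SD, RBFOX2 climbs by 0.050, and replicate 1 lies far below the other RBFOX1 points.

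The score itself differed between blocks. Its mean was -0.86 in block A, 0.56 in block B and 1.55 over both libraries of block C, while 9 of 16 libraries of block B lay above every library of block A. With the block as a factor, where 10.2% of genes were called, RBFOX3 had a slope of -0.32 (adjusted p 0.00319 in edgeR) and RBFOX2 of 0.097 (adjusted p 0.0199). Within block B the slope of RBFOX3 was -0.29 (adjusted p 0.0392, n = 16) and within block A -0.47 (adjusted p 0.147, n = 14), where 5.37% and 0.647% of genes were called. RBFOX2 had slopes of 0.11 (adjusted p 0.111) and 0.056 (adjusted p 0.682) there, so its relation did not pass within either block. A test of the difference between the slopes of block B and block A called 0 of 19948 genes, and for RBFOX3 that difference was 0.18 ± 0.16 (unadjusted p 0.275, adjusted p 0.793). The unadjusted p of the 10 genes was at least 0.156 in that test.

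NOVA2 was near the threshold, and RBFOX1 passed only in some alternatives. NOVA2 had a slope of -0.12 ± 0.047 (adjusted p 0.0504), and 0.0443 with DESeq2 and 0.0436 with limma. RBFOX1 had -0.11 ± 0.056 (adjusted p 0.136), and -0.16 with an adjusted p of 0.0027 without replicate 1, where 33.5% of genes were called. With the no-feature share as a covariate, a fit that called 37.5% of genes, RBFOX1 had -0.14 (adjusted p 0.0132), NOVA1 0.088 (adjusted p 0.000541) and RBFOX3 -0.26 (adjusted p 7.43e-07). The slope of NOVA1 without it was 0.056 ± 0.035 (adjusted p 0.228). PTBP1 (0.017 ± 0.028), PTBP2 (0.042 ± 0.026), ELAVL2 (0.055 ± 0.052), ELAVL3 (-0.031 ± 0.041) and ELAVL4 (0.045 ± 0.044) did not pass. A simulated slope of 0.1 was recovered in 13% of genes drawn from the whole table, which is not a rate for these genes.

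None of the 10 genes followed the mature myelin score, which averages 11 genes such as MBP and MOG. Slopes lay between -0.065 ± 0.051 per SD for ELAVL2 and 0.060 ± 0.069 for RBFOX3. Of all 19948 genes 2.16% were called, so 0 called among 10 is close to that background. By edgeR's quasi-likelihood test 0 of the 10 had an unadjusted p under 0.05, and the share of all genes with such a p is not given here. DESeq2 called 655 genes (3.28%), and 0 of the 10 were among them.

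Of the 10 genes 7 moved with the share of reads in no gene feature, a property of the library. NOVA1 rose with it by 0.16 ± 0.024 per SD (adjusted p 2.35e-06 in edgeR), NOVA2 by 0.22 ± 0.037 (1.38e-05), ELAVL3 by 0.16 ± 0.031 (8.26e-05) and RBFOX3 by 0.21 ± 0.054 (0.0022). PTBP2 fell by 0.10 ± 0.021 (0.000156), RBFOX1 by 0.20 ± 0.051 (0.00151) and ELAVL2 by 0.17 ± 0.045 (0.0028). That is 4 higher and 3 lower, against 44.5% of 19959 genes called, 23% higher and 21.5% lower. PTBP1 had 0.059 ± 0.025 (adjusted p 0.0529), and RBFOX2 (0.0069 ± 0.018) and ELAVL4 (-0.030 ± 0.044) did not pass. Without replicates 1 and 17, the 2 libraries farthest from the median share, RBFOX1, RBFOX3 and ELAVL2 lost their calls (adjusted p 0.058, 0.0559 and 0.0543 in edgeR). That leaves 4 of the 7, in a fit that called 29% of all genes. Whether either count among the 10 differs from its background was not tested. RBFOX1 also correlated with gene counts per library (Pearson's r = 0.74) and with the pan-neuronal score (0.76). PTBP2 had 0.56 and 0.55, and ELAVL2 0.56 and 0.50. For NOVA1, NOVA2, ELAVL3 and RBFOX3 these r ran from -0.49 to -0.17 and from -0.19 to -0.032. Which of these library properties the levels follow was not tested.

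Within the blocks NOVA1, NOVA2, ELAVL3 and PTBP2 passed in both. Their slopes in block A (n = 14) and block B (n = 16) were 0.13 and 0.22 for NOVA1, 0.17 and 0.25 for NOVA2, 0.15 and 0.19 for ELAVL3, and -0.11 and -0.098 for PTBP2, while 37.2% and 16.9% of genes were called. RBFOX1 had -0.33 in block A (adjusted p 0.000888) and -0.10 in block B (adjusted p 0.213), and RBFOX3 0.22 (adjusted p 0.00458) and 0.14 (adjusted p 0.212). ELAVL2 had -0.16 (adjusted p 0.0617) and -0.20 (adjusted p 0.0308), and PTBP1 0.12 (adjusted p 0.00922) and 0.012 (adjusted p 0.832). Over all blocks without replicate 1, 33.1% of genes were called. RBFOX3 then had 0.16 (adjusted p 0.0518 in edgeR), RBFOX1 -0.14 (adjusted p 0.0364) and PTBP1, highest in replicate 1, 0.030 (adjusted p 0.445). Slopes within block A were not computed without replicate 1, and differences between blocks in the slopes were not tested.

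**Figure D4:**
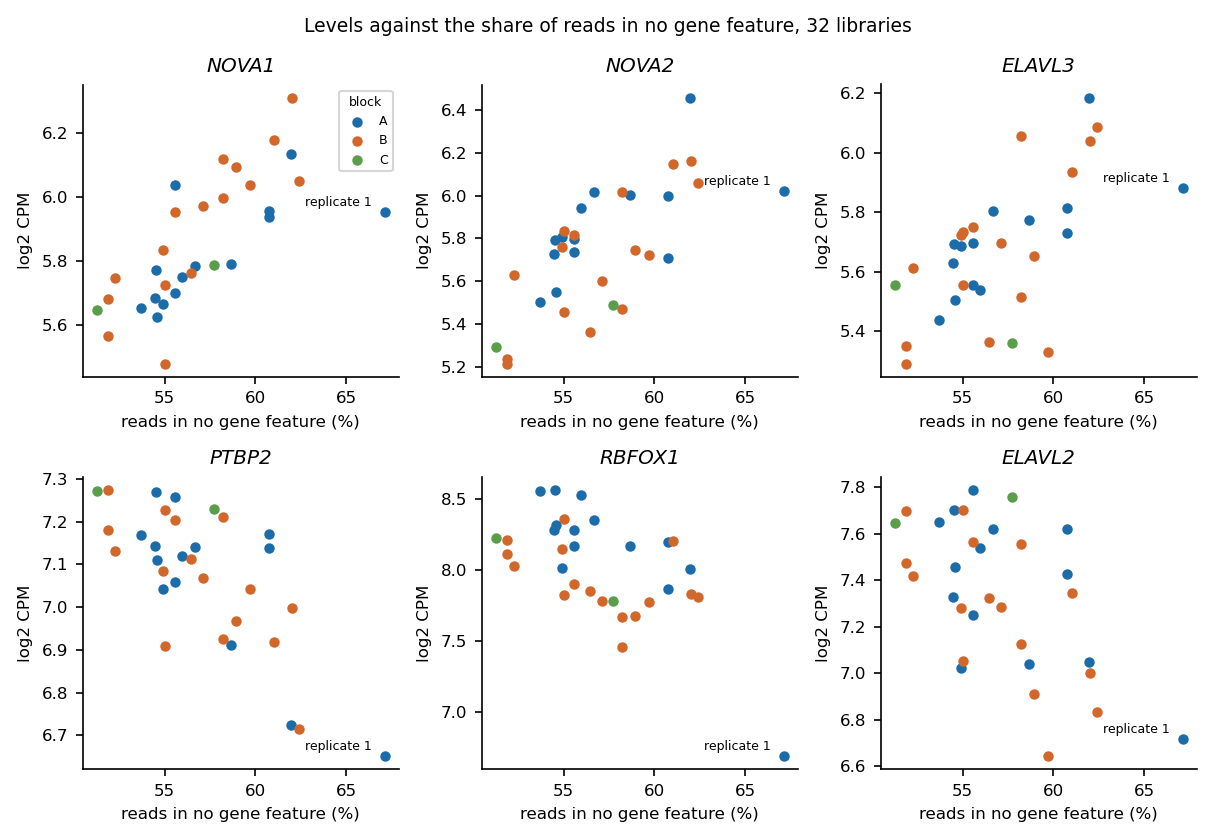
Level (y axes, log2 CPM) of 6 genes against the share of reads in no gene feature (x axes, percent), 1 point per library, coloured by block. NOVA1, NOVA2 and ELAVL3 climb with the share, PTBP2, RBFOX1 and ELAVL2 decline, and replicate 1 lies at the far right with 67.1%.

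Relations between paralogs were compared as log2 ratios of CPM, where the difference between libraries is free of transcript length and the ratio itself is not. Within families 8 pairs were tested between blocks by two-sided permutation tests with 100000 resamples. The ratio of NOVA2 to NOVA1 was 0.046 ± 0.18 (SD, n = 14) in block A and -0.20 ± 0.24 (n = 16) in block B, lower by 0.25 on the log2 scale, with 15 of 16 libraries of block B below the block A median (permutation p 0.00403, adjusted p 0.0322). That of RBFOX2 to RBFOX3 was 2.64 ± 0.37 and 3.03 ± 0.38, higher by 0.39, with 13 of 16 libraries on that side (permutation p 0.0083, adjusted p 0.0332). Both ranges overlapped, from 1.88 to 3.23 and from 2.34 to 3.56 for RBFOX2 to RBFOX3.

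Neither ratio held among libraries with low title numbers, where they differed by -0.14 and 0.26, each with an adjusted permutation p of 0.264. Leaving out 1 library ended the call of NOVA2 to NOVA1 in 8 cases and that of RBFOX2 to RBFOX3 in 10, with adjusted p-values of up to 0.065. RBFOX1 to RBFOX2 differed by -0.26 (adjusted permutation p 0.147), and by -0.36 (adjusted permutation p 0.00888) without replicate 1. PTBP2 to PTBP1, the pair that switches as neurons form, had 2.52 ± 0.30 and 2.40 ± 0.20 (adjusted permutation p 0.43). That ratio differed by -0.11, and by -0.17 without replicate 1, where it did not pass. The other 4 ratios did not pass either.

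Across the 32 libraries 3 of the 8 paralog pairs were correlated, and the share among pairs of other genes was not computed. NOVA1 and NOVA2 went together with Pearson's r = 0.55 (permutation p 0.00113, adjusted 0.00904) and Spearman's rho = 0.51 (adjusted 0.0137), and r was 0.65 in block A and 0.63 in block B. It was 0.49 without the 2 libraries farthest from the median of NOVA2 and 0.097 given the no-feature share. RBFOX2 and RBFOX3 went opposite ways with r = -0.50 (permutation p 0.00375, adjusted 0.015) and rho = -0.52 (adjusted 0.0137), -0.66 in block A and -0.41 in block B. Without the 2 farthest libraries r was -0.40, and without replicate 1 it was -0.43 with an adjusted permutation p of 0.0675. Given the no-feature share r was -0.53. PTBP1 and PTBP2 had r = -0.45 (permutation p 0.00898, adjusted 0.0239) and rho = -0.37 (adjusted 0.106), -0.57 in block A and -0.27 in block B. Without the 2 farthest libraries r was -0.30, and without replicate 1 -0.32 (adjusted permutation p 0.123), so that relation rests on these libraries. Given the no-feature share it was -0.34.

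Over all 45 pairs of the 10 genes 19 passed, 10 positive and 9 negative, and 15 passed by rho. The share among pairs of other genes was not computed, so these counts are not read as a trait of the 10 genes. The closest pair was NOVA2 and ELAVL3 with r = 0.87 and rho = 0.86, 0.89 in block A and 0.90 in block B. PTBP2 and ELAVL2 followed with r = 0.83 and rho = 0.89, 0.89 and 0.77 within the blocks, then NOVA2 and RBFOX3 with r = 0.74 and rho = 0.70, 0.77 and 0.63. Each of these 3 had a permutation p of 1e-05 for r, the smallest possible, and an adjusted p of 0.00015. Without the 2 farthest libraries they were 0.83, 0.78 and 0.67, and given the no-feature share 0.77, 0.73 and 0.63.

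NOVA2 and PTBP2 went opposite ways with r = -0.59 (permutation p 0.00026, adjusted 0.00234; rho -0.54, adjusted 0.0134). The relation was -0.65 in block A, -0.54 in block B, -0.57 without the 2 farthest libraries and -0.19 given the no-feature share. RBFOX1 and ELAVL2 had r = 0.60 (permutation p 0.00024, adjusted 0.00234; rho 0.59, adjusted 0.00484), 0.73 and 0.58 within the blocks, 0.52 without the 2 farthest libraries and 0.37 given that share.

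**Figure D5:**
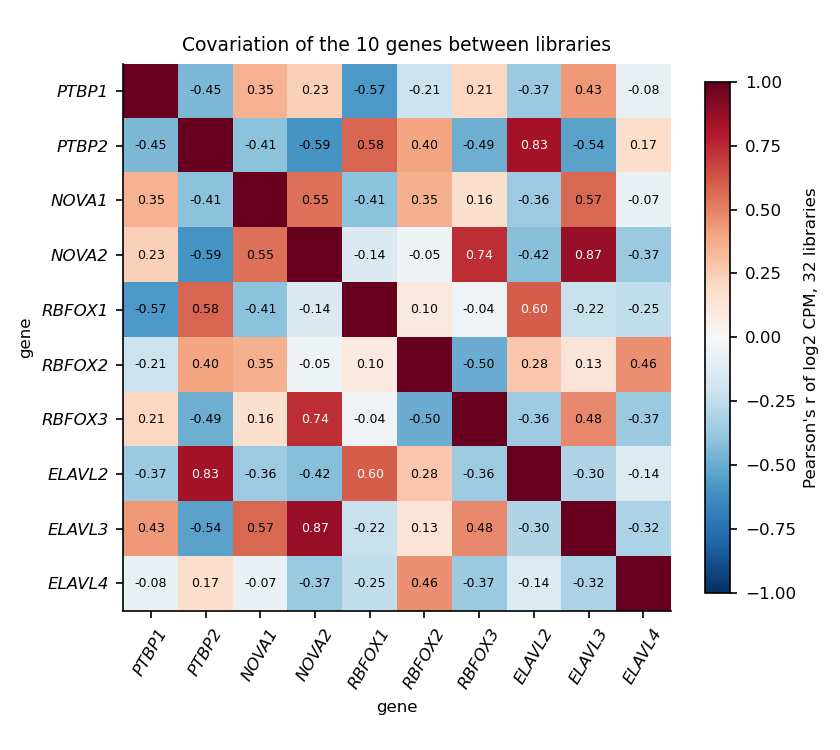
Pearson's r of log2 CPM over 32 libraries for each pair of the 10 genes (both axes list the genes, colour from -1 in blue to 1 in red). NOVA2 with ELAVL3 (0.87) and PTBP2 with ELAVL2 (0.83) are the strongest positive pairs, and PTBP2 with NOVA2 (-0.59) is the strongest negative pair.

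Among 12008 other genes with a symbol and a mean of at least 5 CPM, the levels most like those of each gene over the 32 libraries were as follows, as Pearson's r of log2 CPM. PTBP1 was closest to NCKAP5L (0.82), SBK1 (0.81) and DLG5 (0.81), and PTBP2 to FYTTD1 (0.89), RAB1A (0.88) and TMEM263 (0.87). NOVA1 was closest to FOXJ2 (0.88), RMI1 (0.84) and SESTD1 (0.84), and NOVA2 to the chromatin regulators SRCAP (0.96) and KMT2D (0.96) and the inhibitory synapse protein NLGN2 (0.95). For RBFOX1 they were ENC1 (0.94), LAMP5 (0.94) and STEAP2 (0.94), and for RBFOX2 the neural adhesion molecule NCAM1 (0.80), SCYL2 (0.80) and GPR21 (0.77). RBFOX3 went with the calcium sensor SYT7 (0.93), PIANP (0.93) and CNNM1 (0.93). ELAVL2 went with AGPS (0.92), PVRL3 (0.91) and CRTAC1 (0.91), ELAVL3 with NOL4L (0.89) and NCOA6 (0.88), and ELAVL4 with OLFM3 (0.84), RAB27B (0.81) and TMEM200A (0.81). All these genes share libraries and depth with the gene they resemble.

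Other genes of the same processes were taken from lists. Of 19 splicing regulators tested, TIA1 was higher in block B than in block A by 0.18 ± 0.045, and the muscleblind proteins MBNL2 (-0.35 ± 0.079) and MBNL1 (-0.14 ± 0.042) were lower, so 3 of 19 were called against 12.5% of all genes, and the median was -0.038 over the list against 0.0054 over all genes. With the immature neuron score 1 of 19 rose and 4 fell, against 16.3% higher and 16.6% lower over all genes, so these 5 calls are not above the background. Among them were MBNL2, which fell by 0.25 ± 0.029 per SD, MBNL1, which fell by 0.084 ± 0.019, CELF4, which fell by 0.14 ± 0.038, and TIA1, which rose by 0.13 ± 0.022. For the myelin score 1 of 19 was called, against 2.16% of all genes. It was QKI, a regulator of oligodendrocyte transcripts, with a slope of 0.16 ± 0.028.

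Of 20 regulators of mRNA stability and translation 3 were higher and 4 lower in block B, against 7.11% higher and 5.35% lower over all genes. The 4 with the smallest p were CPEB3 (-0.20 ± 0.041), CPEB4 (-0.18 ± 0.042), MSI1 (0.42 ± 0.096) and CPEB1 (-0.47 ± 0.12). CPEB proteins control polyadenylation and translation in the cytoplasm, and MSI1 is a progenitor protein. With the score 3 of 19 rose and 6 fell, against 16.3% and 16.6% of all genes. Among them were IGF2BP3 with a slope of 0.26 ± 0.051, MSI1 with 0.22 ± 0.045, CPEB4 with -0.11 ± 0.020 and CPEB3 with -0.11 ± 0.021.

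Of 11 transcripts described as bound by neuronal ELAVL proteins, 2 were higher and 3 lower in block B, where 12.5% of all genes were called, with a median of -0.17 against 0.0054 over all genes. GAP43, the growth cone protein and a classic ELAVL4 target, was higher by 0.36 ± 0.092, and CAMK2A (-0.37 ± 0.11) and NRN1 (-0.37 ± 0.12) were among the lower ones. With the immature neuron score GAP43 rose by 0.22 ± 0.042 per SD and 6 of 11 fell, where 32.9% of all genes were called and 16.6% fell. The list's median was -0.11 against -0.00070 over all genes. Among those that fell were CAMK2A, which fell by 0.24 ± 0.051, NRN1, which fell by 0.24 ± 0.054, and SATB1, which fell by 0.23 ± 0.067. Of 5 repressors tied to PTBP1 and a brain microRNA, the phosphatase CTDSP2 was lower in block B by 0.19 ± 0.064 and REST, the main repressor of neuronal genes outside neurons, had 0.17 ± 0.088 (adjusted p 0.196 in edgeR). With the score CTDSP2 fell by 0.14 ± 0.027 and CTDSPL by 0.12 ± 0.034.

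With the no-feature share 8 of 19 splicing regulators rose and 2 fell, 9 of 19 stability and translation regulators rose and 2 fell, 2 of 11 ELAVL-bound transcripts rose and 3 fell, and 3 of 5 repressors rose. Over all genes 44.5% were called, 23% higher and 21.5% lower, and the 5 of 11 ELAVL-bound transcripts are close to that share. Medians were 0.062, 0.12, -0.075 and 0.086 per SD, against 0.0063 over all genes.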

How the data were processed

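The authors deposited whole-number read counts per gene for 32 libraries, without normalization. Per the labels' protocols, libraries were made with a strand-preserving TruSeq kit. STAR and HTSeq were used per the submitters' processing notes; their versions, the genome build and the strand setting are each not given in the sources used here. Of 33999 rows, 5 count reads outside genes and were kept out of library sizes. From these counts, CPM were computed with TMM scaling in edgeR 4.0.16 (R 4.3.3).

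Genes were kept by filterByExpr (minimum count 10, minimum total 15, proportion 0.7): 19959 over all libraries, 23977 by block and 21488 by number set. All genes were fitted with edgeR's quasi-likelihood test, p-values were adjusted by Benjamini-Hochberg over all genes tested and a threshold of 0.05. Title prefixes are 2009 (block A), 2010 (block B) and 2011 (block C), and the block fit held all 32 libraries, block C as its own level. Scores are means of z-scored log2 CPM (prior count 2), scaled to SD. A score's own genes stayed in its fit but were left out of its p-value adjustment and its counts. Ratios and correlations used permutation tests. Intervals are 95% and SE come from the F statistic.

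The 10 genes and all lists were chosen with earlier results of these data known. All 10 genes are named. From each list of related genes up to 4 called genes with the smallest p are named, and the 3 most correlated genes of each of the 10; a few genes that these rules name are not reported here. The genome build behind the counts is unstated, so no coordinates are printed; which genes overlap was read from gene spans in the RefSeq gene table of mChlSab1.0.hap1. Alternatives used DESeq2 1.42.0, limma 3.58.1, other scalings and filters, covariates and subsets; the slope on the no-feature share, that share as a covariate of the slopes and of the number comparison, the test of slopes between blocks and all 45 pairs were added after seeing the data. The fits were tested on simulated data. Precision is limited by depth and by the number of libraries.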

Additional observations from a re-analysis of the deposited data

How the results depend on the processing

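Between blocks, 2987 genes were called, 1133 with title numbers below 20000 and 1 in the fit that held the immature neuron score constant, where RBFOX3 had 0.10, RBFOX2 -0.100 and NOVA1 -0.051. With low title numbers NOVA2 had 0.091, ELAVL3 0.15 and ELAVL4 -0.042. PTBP2, at -0.0015, had 0.030 with library totals, 0.0011 with limma and 0.034 with the pan-neuronal covariate, and ELAVL3 had 0.0021 with library totals. RBFOX3 lost its call with library totals (adjusted p 0.0609 in edgeR). Leaving out 1 library moved PTBP2 from -0.033 to 0.018 and ELAVL3 from -0.057 to 0.018.

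Between number sets, DESeq2 called 183 genes, and leaving out 1 library gave 0 to 35, 35 of them without replicate 26. PTBP1 had -0.0039 with library totals and ran from -0.017 to 0.034 with 1 library left out, and RBFOX1 from -0.038 to 0.074. With the no-feature share as a covariate PTBP2 had -0.086, RBFOX1 -0.17 and ELAVL2 -0.13.

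For the immature neuron score, 2042 genes were called with the block as a factor (PTBP1 -0.013, ELAVL3 0.0067), 129 within block A (PTBP1 -0.028, RBFOX1 0.18, ELAVL4 -0.14) and 1071 within block B (PTBP1 -0.018, ELAVL3 0.043). For the myelin score, DESeq2 called 655 genes, 748 were called with the no-feature share as a covariate, 103 within block A and 260 to 702 with 1 library left out (lowest without replicate 15, highest without replicate 27). There NOVA2 had 0.0028 and ELAVL3 0.0047 with library totals. Within block A NOVA1 had 0.072, NOVA2 0.021, RBFOX2 0.027 and ELAVL3 0.085, and within block B PTBP1 had -0.0033 and RBFOX1 0.046. With 1 library left out NOVA2 ran from -0.027 to 0.018 and ELAVL3 from -0.032 to 0.029.

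For the no-feature share, 3373 genes were called within block B and 5798 without the 2 farthest libraries, where RBFOX1, RBFOX3 and ELAVL2 lost their calls (adjusted p 0.058, 0.0559 and 0.0543 in edgeR). RBFOX2 had -0.0065 with every gene kept, -0.0049 within block A and -0.0010 to 0.020 with 1 library left out, and ELAVL4 0.023 within block A.

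Of the paralog ratios 0 passed with low title numbers, where RBFOX1 to RBFOX3 had -0.053 and ELAVL3 to ELAVL4 0.17. With 1 library left out 0 to 3 passed, and RBFOX1 to RBFOX3 ran from -0.036 to 0.17. Of the paralog correlations 1 passed with library totals, where RBFOX1 and RBFOX2 had -0.43, and 0 within block B, where RBFOX1 had -0.027 with RBFOX2 and 0.042 with RBFOX3 and ELAVL2 had 0.083 with ELAVL4. With 1 library left out 1 to 4 passed, 1 of them without replicate 1. RBFOX1 then ran from -0.15 to 0.15 with RBFOX2 and from -0.12 to 0.34 with RBFOX3. The causes were not tested, and fits within blocks hold fewer libraries.

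No paired analysis was possible because the labels give 1 group and no shared replicate numbers. Most alternatives left out 1 library and so share nearly all libraries with the main fit. Over all alternatives, 2259 values of single genes, ratios or pairs kept their direction and their side of the threshold. That count includes mean levels, which have no threshold and were held to be kept if library totals moved them by less than their SD. Of the other values 42 gained and 48 lost a call, and 87 changed direction.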
